A study of Mus musculus with 2 samples.

Results

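Gdf15 and 7 further genes of the integrated stress response were followed through every cell type of AT3 tumors. They are 8 of the 32285 genes in the count files. The tumors grew in control mice and in mice with Pgd targeted for deletion in myeloid cells. Pgd encodes 6-phosphogluconate dehydrogenase (6PGD). The genes were chosen by the level of Gdf15, which was known to be higher in macrophage-like cells of the deleted mice. That difference is therefore given as a description, and the question asked of the other genes was whether they moved with it and in which cells. AT3 is a mouse mammary tumor cell line. The control library came from Pgd fl/fl mice and the other from Pgd fl/fl LysMCre mice, labelled WT and 6PGDKO. Both groups carried the floxed Pgd alleles, and only the second carried Cre, inserted at Lyz2 (line B6.129P2-Lyz2tm1(cre)Ifo/J), which is used by macrophages, monocytes, neutrophils and some dendritic cells (DCs). Female mice aged 6 to 12 weeks received tumor cells in the mammary fat pad, tumors were taken on day 30, and cells of 10 mice per genotype were pooled into 1 library. The study's methods describe a sort of live CD45+ cells, while 1 step of the labels names CD11b+ cells; T and B cells were present in both libraries. With 1 library per genotype no test between genotypes was possible, and every interval below is an exact 95% interval that covers counting error alone. UMIs of 1 cell are not independent, so these intervals are too narrow where a few cells hold most UMIs.

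The integrated stress response is started by kinases that phosphorylate the translation initiation factor eIF2, each answering to a different stress such as unfolded protein, amino acid shortage or heme shortage. Phosphorylated eIF2 slows most protein synthesis but favours translation of Atf4, so the response runs largely through ATF4 protein, which a count of Atf4 RNA does not measure. ATF4 and its partners switch on genes for amino acid supply, redox control and recovery of translation, and in prolonged stress Ddit3. Gdf15 encodes a secreted cytokine of the TGF-beta superfamily that can be induced through this response and also through p53 and other routes.

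The members were placed by RefSeq on GRCm38.p6, the assembly behind the mm10 build of the count files. Gdf15 lies at chr8:70629393-70632470. Atf4, the transcription factor at the centre of the response, lies at chr15:80255184-80257545. Ddit3, at chr10:127290793-127296291, encodes CHOP, a transcription factor of late stress. Trib3, at chr2:152337425-152344060, encodes a pseudokinase that restrains ATF4 and AKT. Chac1, at chr2:119351242-119354326, encodes an enzyme that degrades glutathione, and Asns, at chr6:7675165-7693209, encodes asparagine synthetase. Sesn2, at chr4:132492804-132510456, encodes a leucine sensor that restrains mTORC1, and Ppp1r15a, at chr7:45522917-45526268, encodes GADD34, which directs the removal of phosphate from eIF2. A second identifier carries the symbol Ddit3 and held 0 UMIs in every group.

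The response reaches many of its genes through a C/EBP-ATF composite element, searched here as the letters TGATGNAA on both strands in promoters of 300 bases, from 250 before to 50 after the annotated start (RefSeq, GRCm38.p6). All 8 members were matched, with 9 promoters, and 3 of them held the letters, against 3.97% of 32851 promoters in the table. They are shown because the same genes, Trib3, Chac1 and Asns, are the ones that gave few UMIs in the myeloid cells below. Capitals mark the match within a window of 30 bases, each window is written 5′ to 3′ in the direction of its gene, and the first and second read TGATGNAA on the opposite strand.
Trib3, chr2:152344028-152344057: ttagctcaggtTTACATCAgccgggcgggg
Chac1, chr2:119351038-119351067: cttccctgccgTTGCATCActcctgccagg
Asns, chr6:7693214-7693243: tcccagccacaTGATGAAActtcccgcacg
The match of Asns began 23 bases before the annotated start, that of Chac1 193 bases before it and that of Trib3 14 bases after it. A match is a description of letters and shows no binding, and no match says only that the letters are not in the window.

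The libraries held 27245625 UMIs in 3728 barcodes (Pgd fl/fl) and 28827045 UMIs in 3014 barcodes (Pgd fl/fl LysMCre), with 0 barcodes in common, and 3565 and 2798 cells passed the filters with a median of 5554 and 7926 UMIs. Clustering gave 21 clusters, of which 18 were named from marker genes and 3 stayed unnamed. Macrophage-like cells numbered 749 and 769, monocyte-like cells 128 and 343, neutrophil-like cells 57 and 72, DC-like cells 101 and 137, T cell-like cells 1641 and 1001, and B cell-like cells 570 and 36. Pgd, the deleted gene, was at 104 UMIs per 1000000 UMIs counted (CPM) in macrophage-like cells of Pgd fl/fl and at 29.9 CPM in those of Pgd fl/fl LysMCre, a log2 ratio of −1.80 [−1.98, −1.61]. Pgd was also lower in monocyte-like cells (−1.37 [−1.76, −0.97]). Its interval included 0 in neutrophil-like cells (8 and 5 UMIs), DC-like cells (33 and 48 UMIs) and T cell-like cells (243 and 199 UMIs). The same held in B cell-like cells (52 and 1 UMIs) and ILC- and NK-like cells (36 and 30 UMIs). In the unnamed cluster led by H2-M5, Tcea3 and Cldn1 the ratio was −0.55 [−1.08, −0.02], from 61 and 65 UMIs. In the epithelial tumor-like cells Pgd had 41 and 32 UMIs, 68.2 and 29.8 CPM, a ratio of −1.19 [−1.91, −0.49]. Those cells were named from keratin and other epithelial markers in a sort for CD45+ cells, and whether they come from the injected line was not tested.

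Gdf15 RNA was concentrated in macrophage-like cells and was higher there in Pgd fl/fl LysMCre. These cells held 921 Gdf15 UMIs in Pgd fl/fl, 99.8 CPM [93.5, 107], and 2631 in Pgd fl/fl LysMCre, 248 CPM [238, 257], a log2 ratio of 1.31 [1.20, 1.42]. Over the 11858 genes with at least 20 UMIs in these cells, 2.41% were at least 2-fold higher and 1.26% at least 2-fold lower in Pgd fl/fl LysMCre, and the median ratio was 0.07. Gdf15 was the only member of the 8 past 2-fold in either direction, and this is the value that chose the genes.

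The difference lay both in how many cells held Gdf15 and in how much each held. A Gdf15 UMI was found in 168 of 749 cells (22.4% [19.5, 25.6]) of Pgd fl/fl and in 249 of 769 cells (32.4% [29.1, 35.8]) of Pgd fl/fl LysMCre. With each cell thinned to 2000 UMIs the shares were 10.9% and 16.9%, after 22 and 34 shallower cells were left out. Positive cells held 5.48 UMIs on average in the control library and 10.6 in the other. At least 10 UMIs were found in 23 cells of the first library and in 75 of the second, and the highest cells held 51 and 103. The median cell of both libraries held 0, and the 5 highest cells held 19.0% and 16.5% of the Gdf15 UMIs.

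**Figure D1:**
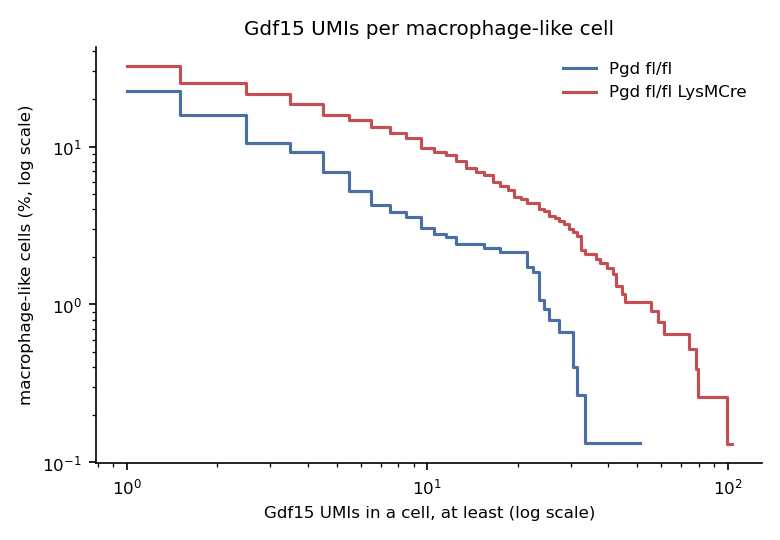
Share of macrophage-like cells (%, log scale) that held at least the number of Gdf15 UMIs on the horizontal axis (log scale), for Pgd fl/fl (blue) and Pgd fl/fl LysMCre (red). The red curve lies above the blue one from 1 UMI, at 32.4% against 22.4% of cells, and ends at 103 UMIs against 51.

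Within the macrophage-like cells, most Gdf15 was in the cluster led by Vcam1, Mmp13 and Apoe, which held 571 and 537 of the cells and 815 and 2417 of the UMIs. Gdf15 was among the 10 leading genes of that cluster, so its place there is partly set by the clustering. Its log2 ratio between the libraries was 1.50 [1.38, 1.61] in this cluster, 1.07 [0.59, 1.57] in the cycling cluster led by Hist1h2ae, Cenpf and Birc5 (47 and 159 UMIs), and 2.55 in the cluster led by Ighm and Ccl8, which had 2 and 12 UMIs. The cluster led by Retnla, Lyz1 and Fn1 went the other way, at −2.23 with 57 and 43 UMIs. There, 1 of 15 Pgd fl/fl cells held 51 of the 57 UMIs (89.5%), and a UMI was found in 3 of those 15 cells against 14 of 49. When clusters were formed without the members and the other stress genes, the ratio in macrophage-like cells was 1.37.

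RNA of lymphocytes was also counted in macrophage-like cells, and it differed between the libraries. The summed level of 8 T cell markers was 645 CPM in Pgd fl/fl and 891 CPM in Pgd fl/fl LysMCre, that of 6 B cell markers 562 and 103 CPM, and that of 8 ILC and NK cell markers 200.0 and 351 CPM, with no marker of these lists at 0. A UMI of 9 lymphocyte markers was found in 42.1% and 49.8% of the cells. Without those cells the Gdf15 ratio was 1.59 [1.45, 1.74]. Median depth was 11861 and 12863 UMIs per cell, and median mitochondrial shares were 2.28% and 2.35%.

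Monocyte-like cells held less Gdf15 than macrophage-like cells in both libraries. They had 65 and 164 UMIs, 48.8 CPM [37.7, 62.2] and 40.3 CPM [34.4, 47.0], with a log2 ratio of −0.28 [−0.70, 0.16]. This value depended on which cells were called monocyte-like, at 0.79 [−0.22, 1.92] from 11 and 34 UMIs with a cluster resolution of 1.6 and at −0.91 [−1.37, −0.44] from 65 and 106 UMIs with a stricter cell filter. A UMI was present in 11.7% and 11.4% of the cells, and 5 cells held 73.8% and 54.9% of the UMIs.

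T cell-like cells, taken here as cells that should lack Gdf15, held 18 and 14 UMIs, 1.92 CPM [1.14, 3.03] and 2.17 CPM [1.19, 3.65], in 1.04% and 1.30% of cells at a median of 4870 and 5097 UMIs. B cell-like cells held 4 and 0 UMIs, and ILC- and NK-like cells 1 and 1. DC-like cells held 4 and 14, at 2.89 CPM [0.79, 7.41] and 6.35 CPM [3.47, 10.7], and the 14 were in 4 cells with 7 in 1 of them. After thinning, Gdf15 was found in 0.38% and 0.84% of T cell-like cells and in 0 of 100 and 0 of 135 DC-like cells. Gdf15 in lymphocytes was read as background at this depth.

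In 2 small groups the level rested on a few cells. Neutrophil-like cells of Pgd fl/fl had 22 Gdf15 UMIs, 160 CPM [100.3, 242], of which 21 were in 1 of 57 cells, against 1 UMI in 72 cells of Pgd fl/fl LysMCre. Epithelial tumor-like cells had 1 UMI in 28 cells of Pgd fl/fl and 61 UMIs in 46 cells of Pgd fl/fl LysMCre, where 5 cells held them all and 1 held 40. The levels of Gdf15 thus ran from macrophage-like over monocyte-like cells to the background of lymphocytes, while the places of the neutrophil-like and tumor-like cells in that order depended on the library.

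**Figure D2:**
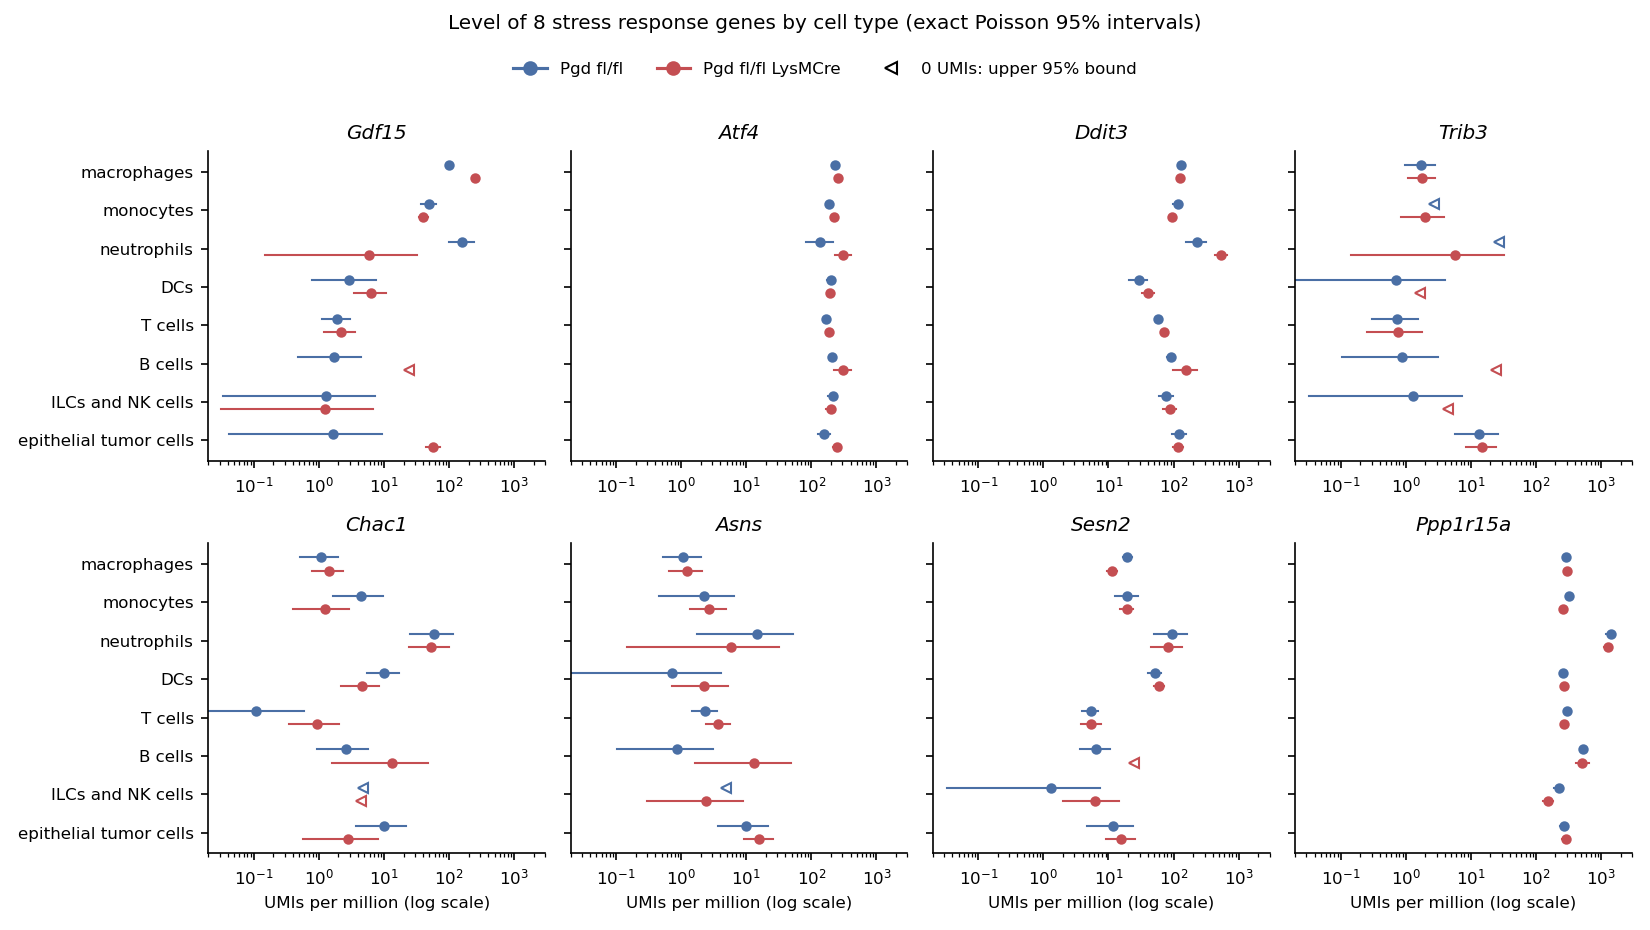
Level of the 8 genes (CPM, log scale) in 8 cell types of Pgd fl/fl (blue) and Pgd fl/fl LysMCre (red). Points are summed UMIs over total UMIs, bars are exact Poisson 95% intervals, and open triangles give the upper bound where 0 UMIs were counted; Gdf15 stood at 99.8 and 248 CPM in macrophage-like cells and at 1.92 and 2.17 CPM in T cell-like cells, whereas Atf4 lay between 138 and 307 CPM in every type.

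Atf4, the centre of the response, was measured in every cell type and differed little between the libraries in macrophage-like cells. There it had 2142 and 2749 UMIs, 232 and 259 CPM, a log2 ratio of 0.16 [0.07, 0.24] beside the median of 0.07 over all genes. An Atf4 UMI was found in 79.2% and 82.7% of the cells, against 36.0% and 37.8% at 2000 UMIs per cell. The ratio was 0.23 [0.03, 0.44] in monocyte-like cells (250 and 898 UMIs), 0.14 [0.03, 0.25] in T cell-like cells (1570 and 1190 UMIs) and −0.06 [−0.28, 0.16] in DC-like cells (275 and 421 UMIs). It was 0.63 [0.29, 0.99] in epithelial tumor-like cells (95 and 263 UMIs) and 0.58 [0.11, 1.02] in B cell-like cells (473 and 46 UMIs). The values in B cell-like and epithelial tumor-like cells were larger than that in macrophage-like cells, though the interval of B cell-like cells overlapped it. In T cell-like cells the median over all 11395 genes was 0.10, with 7242 above 0. Among T cell-like clusters, the interval of Atf4 lay above 0 in those led by Foxp3 (0.29 [0.04, 0.55]) and Tnfsf8 (0.35 [0.03, 0.67]). It included 0 in the others. What these values owe to the deletion or to cell composition was not tested.

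Ddit3 in macrophage-like cells had 1220 and 1333 UMIs, 132 and 125 CPM, a log2 ratio of −0.08 [−0.19, 0.04]. In monocyte-like cells it had 154 and 384 UMIs and a ratio of −0.29 [−0.57, −0.01], with 48.1% of the Pgd fl/fl UMIs in 5 cells. At a cluster resolution of 1.6 this ratio turned to 0.21 [−0.75, 1.25], from 14 and 29 UMIs. A Ddit3 UMI was found in 39.8% of the control monocyte-like cells and in 51.6% of those of Pgd fl/fl LysMCre. Median depth in these cells was 8526 and 9976 UMIs. With cells thinned to equal depth the shares were 16.7% and 16.5%, after 2 and 15 shallower cells were left out. The higher share in Pgd fl/fl LysMCre was thus not seen at equal depth. In T cell-like cells Ddit3 had 545 and 463 UMIs, 58.0 and 71.9 CPM, a ratio of 0.31 [0.13, 0.49]. Within the T cell-like clusters, the interval lay above 0 only in the cycling one led by Pclaf, Hist1h1b and Stmn1 (0.79 [0.36, 1.24]). It included 0 in the others. Of the 11395 genes counted in T cell-like cells, 2.22% were at least 2-fold higher and 1.83% at least 2-fold lower in Pgd fl/fl LysMCre, and 0 of the 6 members counted there were. B cell-like cells had 210 and 23 Ddit3 UMIs, a ratio of 0.75 [0.07, 1.38]. DC-like cells had 40 and 90, a ratio of 0.50 [−0.06, 1.07]. In the DC-like cluster led by Xcr1, Clec9a and Wdfy4 it was 1.42 [0.45, 2.51], from 11 and 48 UMIs. Atf4 in that cluster gave −0.14 [−0.47, 0.21].

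Neutrophil-like cells were the myeloid cells in which Atf4 and Ddit3 were both at least 2-fold higher in Pgd fl/fl LysMCre. Atf4 had 19 and 53 UMIs, 138 CPM [83.2, 216] and 307 CPM [230, 402], a ratio of 1.15 [0.37, 1.99]. Ddit3 had 31 and 92 UMIs, 226 CPM [153, 320] and 534 CPM [430, 654], a ratio of 1.24 [0.64, 1.88]. At 2000 UMIs per cell, an Atf4 UMI was found in 7 of 35 and 20 of 44 cells, and a Ddit3 UMI in 8 and 22 of them, with 22 and 28 shallower cells left out. These are 57 and 72 cells with a median of 2231 and 2113 UMIs, and Pgd itself could not be told apart between the libraries in them. Of the 1887 genes counted in neutrophil-like cells, 4.93% were at least 2-fold higher and 6.68% at least 2-fold lower, so a 2-fold difference was more common here than in macrophage-like cells. Of the 5 members counted, Atf4 and Ddit3 were past it upward and Gdf15 downward, the last through 1 cell.

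The effector genes Trib3, Chac1 and Asns were nearly absent from macrophage-like cells of both libraries. Trib3 had 16 and 19 UMIs, 1.73 and 1.79 CPM, and a log2 ratio of 0.04 [−0.99, 1.10]. Chac1 had 10 and 15 UMIs, a ratio of 0.38 [−0.87, 1.70], and Asns had 10 and 13 UMIs, a ratio of 0.17 [−1.13, 1.52]. Each was found in fewer than 3% of cells: Trib3 in 2.14% and 2.08%, Chac1 in 0.93% and 1.43%, Asns in 1.20% and 1.43%. No difference was detectable in these genes at this depth. The upper bound for Trib3 lay under the value of Gdf15, and those for Chac1 and Asns lay above it.

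The same genes were found in other cells of the tumor, so the assay was able to count them. Chac1 was highest in neutrophil-like cells, at 58.2 CPM [25.1, 115] and 52.2 CPM [23.9, 99.1], with a UMI in 12.3% and 11.1% of cells. An unnamed cluster led by H2-M5, Tcea3 and Cldn1, whose 10 leading genes include Epcam and Cd207, held 17 and 29 Chac1 UMIs, with a UMI in 14.6% and 14.3% of cells. Asns was found in 17.9% and 21.7% of epithelial tumor-like cells, at 9.98 and 15.8 CPM. Trib3 was at 13.3 and 14.9 CPM in the tumor-like cells, but 1 cell of Pgd fl/fl LysMCre held 14 of 16 UMIs. None of these pairs differed between the libraries beyond its counting interval.

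Sesn2 in macrophage-like cells went against Gdf15. It had 180 UMIs in Pgd fl/fl, 19.5 CPM, and 121 in Pgd fl/fl LysMCre, 11.4 CPM, a log2 ratio of −0.78 [−1.12, −0.44]. A Sesn2 UMI was found in 19.5% [16.7, 22.5] and 11.7% [9.52, 14.2] of cells, and in 3.30% and 1.63% at 2000 UMIs per cell. No cell of either library held more than 7 UMIs, and the 5 highest cells held 10.6% and 14.9% of them. In the Vcam1, Mmp13 and Apoe cluster the ratio was −1.07 [−1.49, −0.67] (154 and 77 UMIs), whereas in the cycling cluster it was 0.27 [−0.62, 1.21] (17 and 33 UMIs). In monocyte-like cells the ratio was −0.04 [−0.70, 0.66]. Sesn2 was more abundant in neutrophil-like cells, at 94.6 and 81.2 CPM from 13 and 14 UMIs, in DC-like cells, at 51.4 and 59.4 CPM, and in the unnamed H2-M5 cluster, at 75.7 and 59.8 CPM, and in all of these the interval of the ratio included 0.

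Ppp1r15a, the phosphatase subunit that ends the response, was among the readily counted members in every cell type. In macrophage-like cells it had 2659 and 3240 UMIs, 288 and 305 CPM, and its log2 ratio of 0.08 [0.01, 0.16] turned to −0.15 [−0.34, 0.04] when each cell was thinned to 2000 UMIs. In the Retnla, Lyz1 and Fn1 cluster the ratio was 0.66 [0.21, 1.13] from 48 and 268 UMIs. Without that cluster the macrophage-like value was 0.02 [−0.06, 0.09]. In monocyte-like cells the ratio was −0.29 [−0.45, −0.13] (425 and 1061 UMIs), and 4.81% of the 9430 genes counted there were at least 2-fold higher and 1.71% at least 2-fold lower, with 0 of the 5 members counted past 2-fold. In T cell-like cells it was −0.17 [−0.26, −0.08], and in ILC- and NK-like cells −0.53 [−0.87, −0.19]. Within each of the 6 T cell-like clusters the interval included 0, with ratios from −0.21 to 0.10. The cluster at −0.21, led by Lef1, Dapl1 and Igfbp4, had 437 and 378 CPM and held 467 and 52 cells. The level of Ppp1r15a was highest in neutrophil-like cells, at 1405 and 1270 CPM, with a ratio of −0.15 [−0.43, 0.14].

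**Figure D3:**
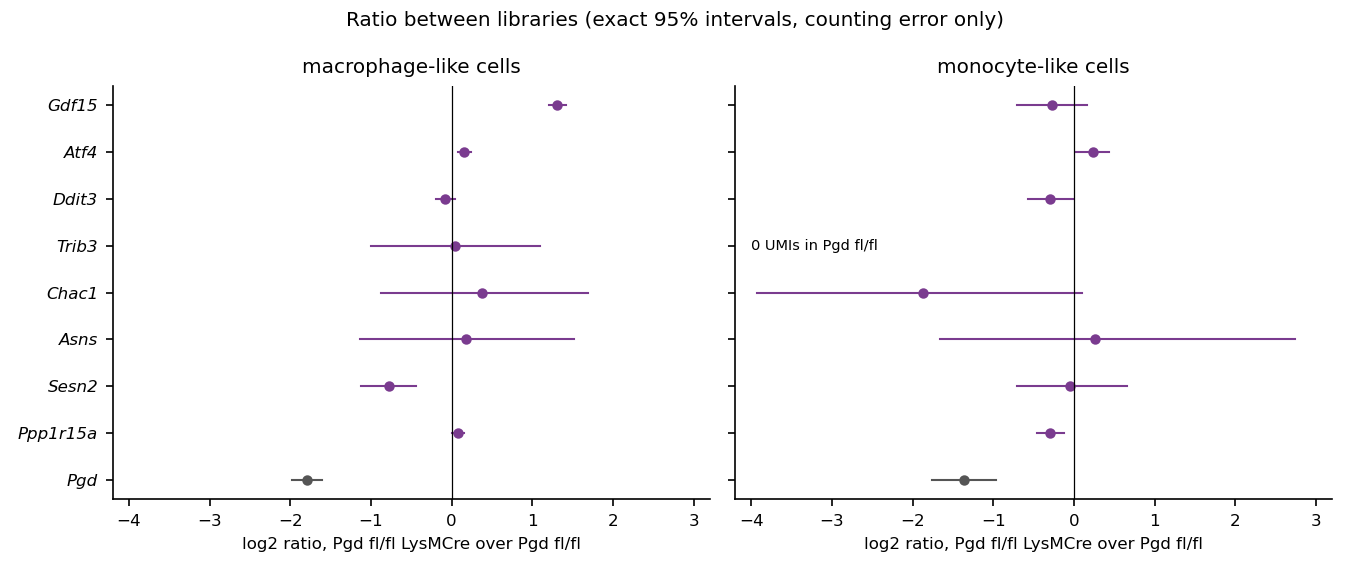
Log2 ratio of Pgd fl/fl LysMCre over Pgd fl/fl for the 8 genes and for Pgd, with exact 95% intervals for counting error, in macrophage-like (left) and monocyte-like (right) cells. On the left Gdf15 stands at 1.31, Sesn2 at −0.78 and Pgd at −1.80, and the 6 other genes lie between −0.08 and 0.38; on the right Gdf15 lies at −0.28, and no ratio is given for Trib3, which had 0 UMIs in Pgd fl/fl.

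Cells that held Gdf15 also held more Atf4, in both libraries. After thinning to 2000 UMIs, 79 macrophage-like cells of Pgd fl/fl had a Gdf15 UMI and 648 had none. Atf4 was at 449 CPM in the first and 244 CPM in the second, a log2 ratio of 0.88 [0.49, 1.26]. In Pgd fl/fl LysMCre, with 124 and 611 cells, Atf4 was at 432 and 255 CPM, a ratio of 0.76 [0.43, 1.08]. Among genes with at least 100 thinned UMIs, a limit chosen after the values were seen, 2.47% of 1943 and 1.97% of 2033 had a ratio as high as that of Atf4.

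Ddit3 was at 190 and 136 CPM in the cells with and without Gdf15 of Pgd fl/fl (0.48 [−0.13, 1.05]) and at 190 and 108 CPM in those of Pgd fl/fl LysMCre (0.81 [0.30, 1.30]). Ppp1r15a gave 0.33 [−0.08, 0.72] and 0.39 [0.04, 0.74]. Sesn2 had 4 UMIs in positive cells of the first library and 3 in those of the second, and Trib3, Chac1 and Asns had at most 2 each. No member with at least 20 thinned UMIs passed 2-fold in this split. Over all genes with at least 20 thinned UMIs, 5.21% were at least 2-fold higher and 10.5% at least 2-fold lower in the Gdf15-positive cells of Pgd fl/fl, and 3.57% and 7.56% in those of Pgd fl/fl LysMCre. Vcam1, a leading gene of the largest macrophage-like cluster, was also higher in the Gdf15-positive cells, at 0.81 [0.57, 1.05] and 0.76 [0.53, 0.98], and Apoe gave 0.12 [0.07, 0.18] and 0.37 [0.32, 0.41]. Cells of 1 library are not replicates, so these ratios are descriptions.

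At full depth, 149 of the 168 and 206 of the 249 Gdf15-positive cells were of 1 cluster, so the split was repeated in that cluster (Vcam1, Mmp13 and Apoe) alone at 5000 UMIs per cell. Atf4 stayed higher in the positive cells, at 308 against 249 CPM in Pgd fl/fl (0.31 [0.04, 0.57]) and at 367 against 233 CPM in Pgd fl/fl LysMCre (0.65 [0.43, 0.88]). A ratio as high was reached by 13.4% and 1.54% of genes with at least 100 UMIs. Ddit3 gave −0.07 [−0.44, 0.28] and −0.10 [−0.45, 0.24] in this cluster, and Ppp1r15a −0.27 [−0.54, −0.01] and 0.14 [−0.07, 0.36]. In Pgd fl/fl LysMCre the higher Ddit3 of Gdf15-positive cells was thus measured over all clusters but not within the largest one, which was also read at another depth, whereas that of Atf4 was measured in both.

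**Figure D4:**
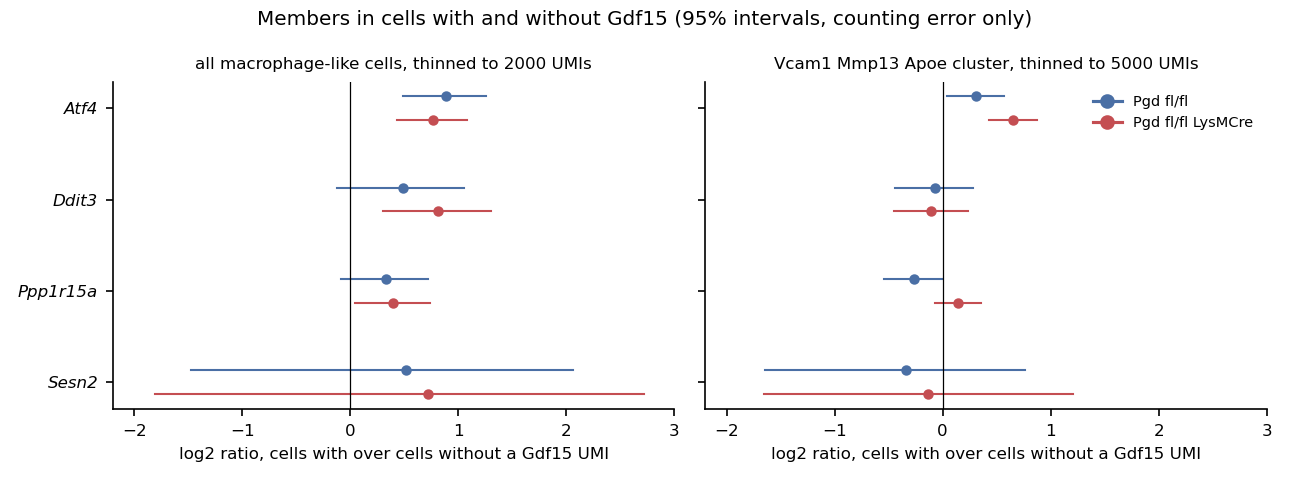
Log2 ratio of 4 members in macrophage-like cells with over cells without a Gdf15 UMI, with exact 95% intervals for counting error, in Pgd fl/fl (blue) and Pgd fl/fl LysMCre (red). Atf4 lies above 0 in all cells (left, 0.88 and 0.76) and in the Vcam1, Mmp13 and Apoe cluster (right, 0.31 and 0.65), while Ddit3 lies at −0.07 and −0.10 on the right.

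The other genes of the response and of related stress pathways showed smaller differences between the macrophage-like cells of the libraries. Of 131 genes counted in 8 lists, 1 was at least 2-fold higher (0.763%, against 2.41% of all genes) and 1 at least 2-fold lower (0.763%, against 1.26%), so 2-fold differences were uncommon in the lists as they were among all genes. Of all 11858 genes, 7223 were above 0. All 20 kinases, regulators and transcription factors of the response were counted, 0 passed 2-fold and the median ratio was 0.02. Atf3, a stress transcription factor and the most abundant of them, had 14323 and 13818 UMIs and a ratio of −0.26 [−0.29, −0.22]. Of 20 genes of amino acid synthesis and transport 15 had at least 20 UMIs, with a median of 0.13 and 11 of 15 above 0. Only Slc1a4, a neutral amino acid transporter, passed 2-fold there (10 and 25 UMIs, 1.12 [0.01, 2.34]), and Slc3a2, the heavy chain of amino acid exchangers, gave −0.23 [−0.28, −0.17]. Among genes chosen after their values were seen, Phgdh, the first enzyme of serine synthesis, had 67 and 126 UMIs and a ratio of 0.71 [0.27, 1.16]. Mthfd2, an enzyme of mitochondrial folate metabolism, had 216 and 357 UMIs and a ratio of 0.52 [0.27, 0.77]. The transporters Slc38a2 and Slc7a11 gave 0.21 [0.10, 0.32] and 0.17 [0.03, 0.32]. Got1, chosen likewise, lay below 0, at −0.11 [−0.20, −0.02]. The 20 cytosolic tRNA synthetases, which ATF4 often raises as a group, had a median of 0.06 with 13 of 20 above 0 and 0 past 2-fold, and Nars, the most abundant, gave −0.10 [−0.20, 0.01]. Chosen in the same way, Iars gave 0.60 [0.27, 0.93] from 124 and 216 UMIs, Qars 0.22 [0.01, 0.43] and Sars 0.18 [0.03, 0.33].

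Among 22 genes of the endoplasmic reticulum under ATF6 and XBP1, the median was −0.04 and Derl3, a factor of protein disposal, was lower (45 and 22 UMIs, −1.24 [−2.04, −0.47]). The chaperone Hspa5 gave −0.02 [−0.05, 0.02] with 13281 and 15127 UMIs. Of these 22 genes 10 were above 0 and 12 below, and intervals of single genes lay on both sides of 0. Chosen after their values were seen, Herpud1 gave −0.67 [−0.75, −0.59] from 3013 and 2179 UMIs. Sdf2l1, chosen likewise, gave −0.33 [−0.44, −0.23], and Xbp1 gave 0.315 [0.20, 0.43]. The medians were 0.00 over 13 genes of mitochondrial stress and 0.06 over 15 p53 targets, with Hspe1 at 0.00 and Btg2 at −0.32 [−0.37, −0.28]. Of the p53 targets 9 of 15 were above 0, and the intervals of single genes lay on both sides of 0. Chosen after their values were seen, Zmat3 gave 0.73 [0.19, 1.29] from 44 and 84 UMIs, Mdm2, which restrains p53, 0.40 [0.23, 0.56] from 515 and 781 UMIs, Ccng1 0.30 [0.07, 0.52] and Bax 0.29 [0.19, 0.39]. Cdkn1a, a brake on the cell cycle, gave −0.22 [−0.28, −0.16]. The median over 12 NRF2 targets was 0.25, with 10 of 12 above 0 and Taldo1, an enzyme of the pentose phosphate pathway, at 0.27 [0.20, 0.34]. For the same list it was 0.27 in T cell-like cells, with 10 of 12 above 0. Over all genes there it was 0.10, with 7242 of 11395 above 0. In monocyte-like cells the median of the list was −0.17, with 4 of 12 above 0, beside 0.04 and 5211 of 9430 for all genes. Chosen after their values were seen in macrophage-like cells, Gsr gave 0.78 [0.52, 1.05], Gclm 0.68 [0.46, 0.91] and Gclc 0.57 [0.30, 0.83]. The 15 immediate early and heat shock genes had a median of −0.14, with 12 of 15 below 0 and Hspa8 at −0.03 [−0.06, −0.01]. These last 4 lists had 0 genes past 2-fold.

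**Figure D5:**
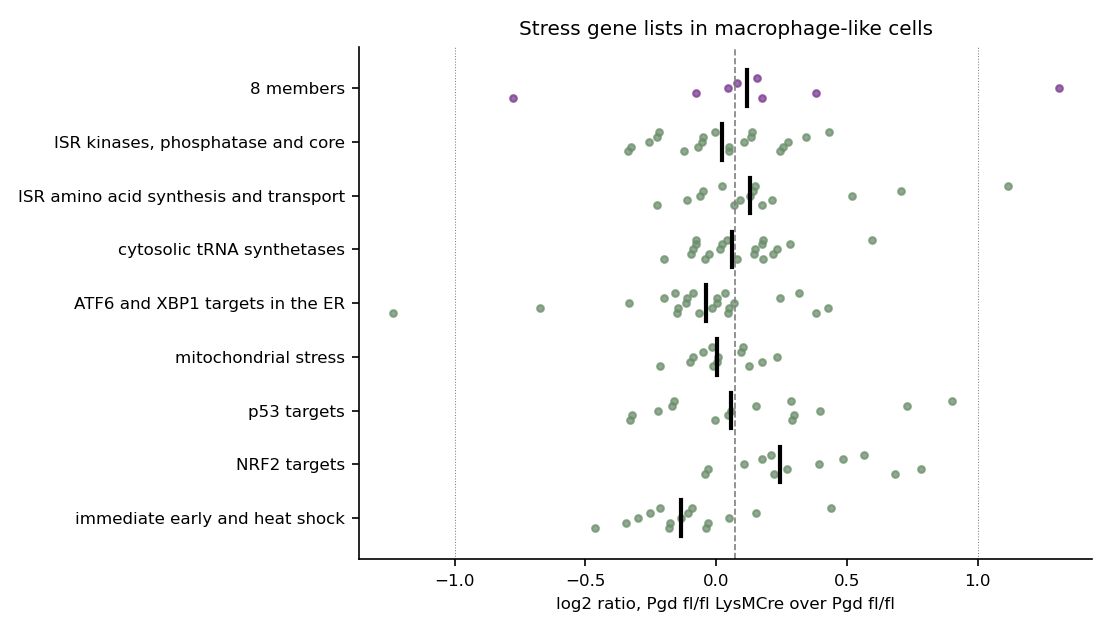
Log2 ratio of Pgd fl/fl LysMCre over Pgd fl/fl in macrophage-like cells for each gene of 8 stress lists with at least 20 UMIs (green) and for the 8 members (purple), spread vertically for view. Black bars are list medians, the dashed line is the median of all 11858 genes (0.07) and dotted lines mark 2-fold; Gdf15 (1.31), Slc1a4 (1.12) and Derl3 (−1.24) are the points outside them.

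Across cell types the other members followed Gdf15 less closely than many genes did. Over 13 combinations of named cell type and library with at least 50 cells, Pearson's r of log2(CPM + 5) with Gdf15 ran from 0.02 for Atf4 to 0.40 for Ddit3. The 5 genes most like Gdf15 of 11480 were Mitf (0.96), Tfec (0.96), Pcnx (0.95), Ccl9 (0.95) and Rab5c (0.95). Mitf and Tfec encode related transcription factors, and Ccl9 a chemokine. The point of the Pgd fl/fl neutrophil-like cells rests on 22 Gdf15 UMIs with 21 in 1 cell. Without it, r over 12 points was 0.40 for Atf4, 0.30 for Ddit3 and −0.02 for Ppp1r15a, and the 5 genes most like Gdf15 became Lpl (0.99), Daglb (0.98), C3ar1 (0.98), C1qb (0.97) and Mrc1 (0.97). Mitf was then at 0.95 and Tfec at 0.96, at places 41 and 25 of the order. In macrophage-like cells of the libraries, log2(CPM + 5) was 4.60 and 4.62 for Mitf and 7.11 and 7.66 for Ccl9. The 13 points share 2 libraries and are not independent, so the correlations are descriptions.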

How the data were processed

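The authors deposited, per library, unnormalized UMI counts of each gene in each barcode that passed the cell calling of Cell Ranger 6.1.2 on mm10, as the submitters' processing notes name them, together with counts of 12 multiplexing oligos, which were left out. The study used Seurat for its analysis. Reads were not reprocessed. Counts of cells with 500 to 7500 genes and at most 15% mitochondrial UMIs were clustered in Seurat 5.3.0 (R 4.3.3, 2000 variable genes, 30 components, resolution 0.8, no integration). Clusters were named from fixed markers, at least 3 of which had to be detected. No doublet caller was run; cells with lymphocyte UMIs were left out as an alternative.

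UMIs of a gene were summed over the cells of a type in each library and divided by all UMIs of those cells (CPM). Levels have exact Poisson, ratios exact conditional and shares exact Clopper-Pearson 95% intervals (scipy 1.17.1), and all cover counting error only. Only the ratio intervals were tested, on simulated independent Poisson counts, which do not hold the clumping of UMIs in single cells. A gene was counted with at least 20 UMIs, and past 2-fold at a log2 ratio of 1; a count of 0 was set to 3 UMIs for that limit. For equal depth, cells were thinned to 2000 UMIs at random. Total depth was 27245625 and 28827045 UMIs. No test between genotypes was made with 1 library each.

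The members and lists were chosen with earlier results of these data known. Named from each list were the genes past 2-fold in macrophage-like cells, at most 3 by size, and the gene with most UMIs. The 5 genes most like Gdf15 were taken by Pearson's r over genes with at least 100 UMIs. Alternatives changed the clusters, filters, depth, scaling and high cells.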

Additional observations from a re-analysis of the deposited data

Results flagged for a closer look

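Ratios whose counting intervals lay on opposite sides of 0 in different cell types were picked out. The search covered macrophage-, monocyte-, neutrophil-, DC-, T cell- and ILC- and NK-like cells, and macrophage-like clusters for Gdf15 alone. B cell-like, epithelial tumor-like and unnamed cells were not searched. Among them, Gdf15 was at 5.1 [2.56, 10.4] in epithelial tumor-like cells and Ddit3 at 0.75 in B cell-like cells. Ppp1r15a was at −0.75 and −0.55 in the unnamed clusters led by Gm156 and H2-M5. With 1 library per genotype these differences were not tested. For Gdf15 the log2 ratio was 1.31 in macrophage-like cells and −4.79 in neutrophil-like cells, where 21 of the 22 Pgd fl/fl UMIs were in 1 cell. Between macrophage-like clusters, Gdf15 was at 1.50 (Vcam1, Mmp13 and Apoe), 2.55 (Ighm and Ccl8), 1.07 (Hist1h2ae, Cenpf and Birc5) and −2.23 (Retnla, Lyz1 and Fn1), the last with 51 of 57 Pgd fl/fl UMIs in 1 cell. Ddit3 was at −0.29 in monocyte-like, 1.24 in neutrophil-like and 0.31 in T cell-like cells. Ppp1r15a was at 0.0808 in macrophage-like, −0.29 in monocyte-like, −0.17 in T cell-like and −0.53 in ILC- and NK-like cells. In each T cell-like cluster alone the interval of Ppp1r15a included 0. That of Ddit3 included 0 in all T cell-like clusters but the cycling one. Without the Retnla cluster its macrophage-like value was 0.02 [−0.06, 0.09].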

How the results depend on the processing

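No paired analysis was possible because each genotype had 1 library, and for the same reason leave-one-out values do not exist. Of 124 alternative values for the members in macrophage-like and monocyte-like cells, 101 lay inside the interval of the value reported. The intervals of Trib3, Chac1 and Asns are wide, so a value inside them says little. For Gdf15, 7 of 13 alternatives in macrophage-like cells and 3 of 4 in monocyte-like cells lay outside the interval. Alternatives with other cluster weights, without the Retnla cluster, at 5000 UMIs, without the 20 highest cells or, for likeness to Gdf15, without the Pgd fl/fl neutrophil-like cells were added after the data were seen.

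Gdf15 in macrophage-like cells was above 0 in 13 of 13 alternatives: 1.16 at 2000 and 1.08 at 5000 UMIs per cell, 1.59 without cells with a lymphocyte UMI, 1.20 as the mean of single-cell CPM, 1.03 with monocyte-like cells added, 1.18 with clusters weighted alike and 1.65 without the 20 highest cells. In monocyte-like cells its value was 0.79 at resolution 1.6, −0.91 with the stricter cell filter and −0.75 at 2000 UMIs; the cause was not tested. Sesn2 in macrophage-like cells was below 0 in 13 of 13, at −1.19 for 2000 UMIs. Atf4 was above 0 in 13 of 13, at 0.0652 for 5000 UMIs.

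Ppp1r15a in macrophage-like cells turned to −0.15 at 2000 UMIs and came to 0.00249 with monocyte-like cells added; in monocyte-like cells it was −0.0876 at resolution 1.6. Ddit3 in macrophage-like cells was −0.22 at 2000 and −0.27 at 5000 UMIs, and in monocyte-like cells it turned to 0.21 at resolution 1.6. Sparse genes moved most in macrophage-like cells: Trib3 to −2.02 and Asns to −1.60 at 2000 UMIs, Asns to −2.35 at 5000, and Chac1 to −0.99 with the stricter filter and −1.37 when clustered without the listed genes. Where a library held 0 UMIs, as for Trib3 in monocyte-like cells, no value is given. Depth limits Trib3, Chac1 and Asns, and too few cells limit neutrophil-like and tumor-like values.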
